A study of Mus musculus with 20 samples.

Results

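The 10 genes described here encode cytosolic and endosomal sensors of nucleic acids, with adaptors and the RNA-editing enzyme ADAR. The genes are *Ddx58*, *Ifih1*, *Dhx58*, *Mavs*, *Tmem173*, *Mb21d1*, *Eif2ak2*, *Zbp1*, *Tlr3* and *Adar*. For short, all 10 are called sensor genes. They were taken by symbol from a table of estimated read counts, in which all 10 were found among 24411 genes. All 10 also passed the filter on low counts, which left 15284 genes for testing. The genes were selected by name, with earlier results of these data known. The rule itself uses no measured value.

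The libraries came from cultures of granule neurons, small excitatory cells of the mouse cerebellum, with 5 libraries in each of 4 groups. The study asked whether the enzymatic activity of Kdm6b, a demethylase of lysine 27 on histone H3, can restore gene expression after loss of the endogenous protein. One group was the control. The second received a short hairpin RNA against mouse *Kdm6b* (shKdm6b). The other groups received the same hairpin together with the human KDM6B enzymatic domain, either active (Cat Rescue, here the active rescue) or dead (dCat Rescue, here the dead rescue). Neurons were infected on day 1 in vitro, in the rescues with hairpin and domain together, treated with AraC, which kills dividing cells, on day 2 and harvested on day 7. The design text sets out these days for the rescues and gives no other schedule for control and shKdm6b. The labels give neither the mouse strain and age nor what the control received. Each group has libraries numbered 1 to 5, and no label says what a number stands for or that the libraries are separate cultures. P-values therefore measure the spread between these libraries, which may in part be technical.

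Cells detect foreign or misplaced nucleic acid with receptors that differ in where they sit and what they bind. RIG-I (gene *Ddx58*) and MDA5 (*Ifih1*) bind double-stranded RNA in the cytosol and signal through MAVS on mitochondria, TLR3 binds it in endosomes, and cGAS (*Mb21d1*) binds DNA and makes a cyclic dinucleotide that activates STING (*Tmem173*). These routes lead to type I interferon, and several of the sensors are themselves induced by interferon. In the brain, astrocytes and microglia are well known users of these routes, and neurons hold them too.

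RefSeq promoter sequences (build GRCm38.p6, 250 bases before to 50 after the start site) were matched by symbol or gene ID for 7 of the 10 genes, in 9 windows. *Dhx58*, *Zbp1* and *Tmem173* had no entry. The windows were searched on both strands for GAAANNGAAA, a core of the interferon-stimulated response element, with no other motif searched. It occurred in 3 of the 7 genes, against 3.44% of 32851 windows and 3.99% of 27025 genes in the whole table. All 3 matches found are shown with their flanks. Capitals mark the match, which lies on the opposite strand in *Ddx58*, and each sequence reads 5′ to 3′ on the gene's own (minus) strand.
Ifih1, chr2:62646206-62646233: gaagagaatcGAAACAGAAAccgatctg
Ddx58, chr4:40239804-40239833: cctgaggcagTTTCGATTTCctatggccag
Eif2ak2, chr17:78882535-78882564: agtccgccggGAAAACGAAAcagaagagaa
Counting the start site as base 1, the match ran from base 33 to 42 in *Ifih1*, from base 3 to 12 in *Ddx58* and from base 19 to 28 in *Eif2ak2*. All 3 lie just inside the transcribed part. A match describes these letters and is no evidence of a bound factor.

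Library totals ranged from 14200745 to 21179300 counts. *Kdm6b* itself stood at 141, 171, 139, 81.2 and 187 CPM (counts scaled to library size, with TMM factors) in controls 1 to 5 and at 99.4, 112, 89.3, 37.9 and 76.4 in shKdm6b 1 to 5. Each shKdm6b library lay below the control of its number. The log2 fold change was -0.88 ± 0.21 (SE) with an edgeR adjusted p of 0.0231 when libraries were paired by number. Without pairing it was -0.79 ± 0.43, with an adjusted p of 1.00. In active rescue 1 to 5 *Kdm6b* stood at 290, 312, 266, 73.2 and 119 CPM, with a mean of 212 ± 109 (SD, n = 5). In dead rescue 1 to 5 it stood at 272, 250, 192, 54.9 and 109 CPM, with a mean of 176 ± 92.2. In numbers 4 and 5 both rescues lay below the control and above the shKdm6b library of their number. Whether reads of the human domain were counted as *Kdm6b* cannot be read from the table.

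Libraries shared much of their profile with those of their number in other groups, so each comparison is given from an edgeR quasi-likelihood fit with the number as a pairing term. The fit without pairing was the planned one. Its calls stand beside the paired ones, and single genes are given from the paired fit unless pairing is said to be left out. For shKdm6b against control the SEs of the 10 genes without pairing ran from 0.15 for *Adar* to 0.48 for *Zbp1*, and no gene had an unadjusted p under 0.05. Adjusted p-values are Benjamini-Hochberg values over 15284 genes, a call is an adjusted p under 0.05, and ± on a log2 fold change is its SE.

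No sensor gene passed the test in shKdm6b against control. The 3 RIG-I-like receptors and *Tlr3* stood higher in shKdm6b in all 5 same-numbered pairs, by 0.28 to 0.46 on the log2 scale in the paired fit, and *Adar* stood lower in all 5. In this comparison 0 of 10 sensor genes were called in the paired fit, where 4.14% of all genes were, and 0 without pairing, where 0.00654% were. DESeq2 also called 0 of the 10, paired (6.18% of all genes) or not (0.419%). At an unadjusted p under 0.05 the paired edgeR fit gave 4 of 10 sensor genes, 3 higher and 1 lower, against 14.9% of all genes. Without pairing it gave 0, against 3.12%. Of all genes, 12.9% were higher in 5 of 5 pairs and 11.9% were lower. Groups were free of overlap for 0 of the 10 and for 0.857% of all genes. The median log2 fold change of the 10 was 0.19 in the paired fit, against 0.01 over all genes tested. It was 0.085 without control 4, with 2 of 10 at an unadjusted p under 0.05. Pair 4 had the largest differences for *Ddx58*, *Ifih1* and *Tlr3*, and control 4 held 1502 CPM of summed microglia markers, against 317 to 553 CPM in the other libraries numbered 4, whose part in the result was not tested.

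*Dhx58* encodes LGP2, an RNA helicase without the signalling domains of its relatives that tunes RIG-I and MDA5. Its level was 19.0, 14.6, 23.2, 36.9 and 25.3 CPM in controls 1 to 5 and 23.8, 19.3, 33.4, 50.9 and 31.6 CPM in shKdm6b 1 to 5. It was 23.2, 11.5, 23.9, 45.2 and 20.2 CPM in the active rescue and 20.1, 18.3, 39.5, 48.4 and 36.0 CPM in the dead rescue. Library 4 was the highest and library 2 the lowest in every group, and the groups overlapped. The pairs of shKdm6b and control libraries differed by 0.32, 0.40, 0.53, 0.46 and 0.32 in log2 CPM, a narrow band around the paired log2 fold change of 0.40 ± 0.13 (edgeR unadjusted p = 0.00514, adjusted p = 0.0925). Without pairing it was 0.42 ± 0.35 (unadjusted p = 0.253). The dead rescue stood at 0.42 ± 0.13 over control (adjusted p = 0.133), higher in 5 of 5 pairs, where 6.48% of all genes were. The active rescue stood at 0.01 ± 0.13 against control, with a 95% interval from -0.26 to 0.28. Neither difference passed the test.

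*Ifih1* encodes MDA5, which binds long double-stranded RNA. Controls 1 to 5 held 35.1, 27.9, 55.9, 32.2 and 58.1 CPM, and shKdm6b 1 to 5 held 46.3, 34.5, 71.8, 58.2 and 70.1 CPM. The active rescue libraries held 40.8, 24.0, 42.4, 75.6 and 49.7 CPM, and the dead rescue libraries 44.2, 27.8, 73.5, 68.4 and 73.2 CPM. Every shKdm6b library exceeded its same-numbered control, while the ranges of the groups overlapped. The largest pair difference was 0.85 in log2 CPM, for number 4, against 0.27 to 0.40 for the others. The paired log2 fold change was 0.41 ± 0.17 (edgeR adjusted p = 0.224), and without pairing 0.43 ± 0.32.

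*Ddx58* encodes RIG-I, which binds short double-stranded RNA with a 5′ triphosphate. Controls 1 to 5 held 89.7, 84.0, 131, 78.0 and 116 CPM, and shKdm6b 1 to 5 held 103, 89.7, 164, 119 and 136 CPM. The active rescue libraries held 105, 63.5, 96.3, 161 and 103 CPM, and the dead rescue libraries 110, 74.8, 149, 144 and 145 CPM. All 5 shKdm6b libraries were above their paired controls, by 0.10 to 0.61 in log2 CPM, and the groups overlapped. The paired log2 fold change of 0.28 ± 0.16 did not pass (edgeR adjusted p = 0.464). Without pairing it was 0.30 ± 0.24.

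*Tlr3* encodes the endosomal receptor for double-stranded RNA. Its level was 19.2, 17.8, 28.0, 19.7 and 22.4 CPM in controls 1 to 5 and 25.3, 20.4, 38.6, 34.5 and 32.6 CPM in shKdm6b 1 to 5. In the active rescue it was 22.6, 13.9, 21.7, 39.2 and 23.5 CPM, and in the dead rescue 26.0, 13.5, 38.2, 29.1 and 30.9 CPM. shKdm6b libraries 3 to 5 lay above every control, and library 2 was the lowest of every group. The paired log2 fold change against control, 0.46 ± 0.16, was the largest of the 10 genes and did not pass (edgeR unadjusted p = 0.0121, adjusted p = 0.155). Without pairing it was 0.50 ± 0.27 (unadjusted p = 0.0799). The dead rescue stood at 0.30 ± 0.17 over control and the active rescue at 0.13 ± 0.17.

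*Mavs*, the mitochondrial adaptor that both RIG-I and MDA5 need, had the narrowest group differences of the RNA route. Its group means were 21.03 CPM ± 3.96 (SD, n = 5) in control, 19.7 ± 2.44 in shKdm6b, 20.4 ± 4.38 in the active rescue and 19.6 ± 2.70 in the dead rescue. Its log2 fold change in shKdm6b against control was -0.09 ± 0.11, with a 95% interval from -0.33 to 0.15 and pairs in both directions.

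**Figure D1:**
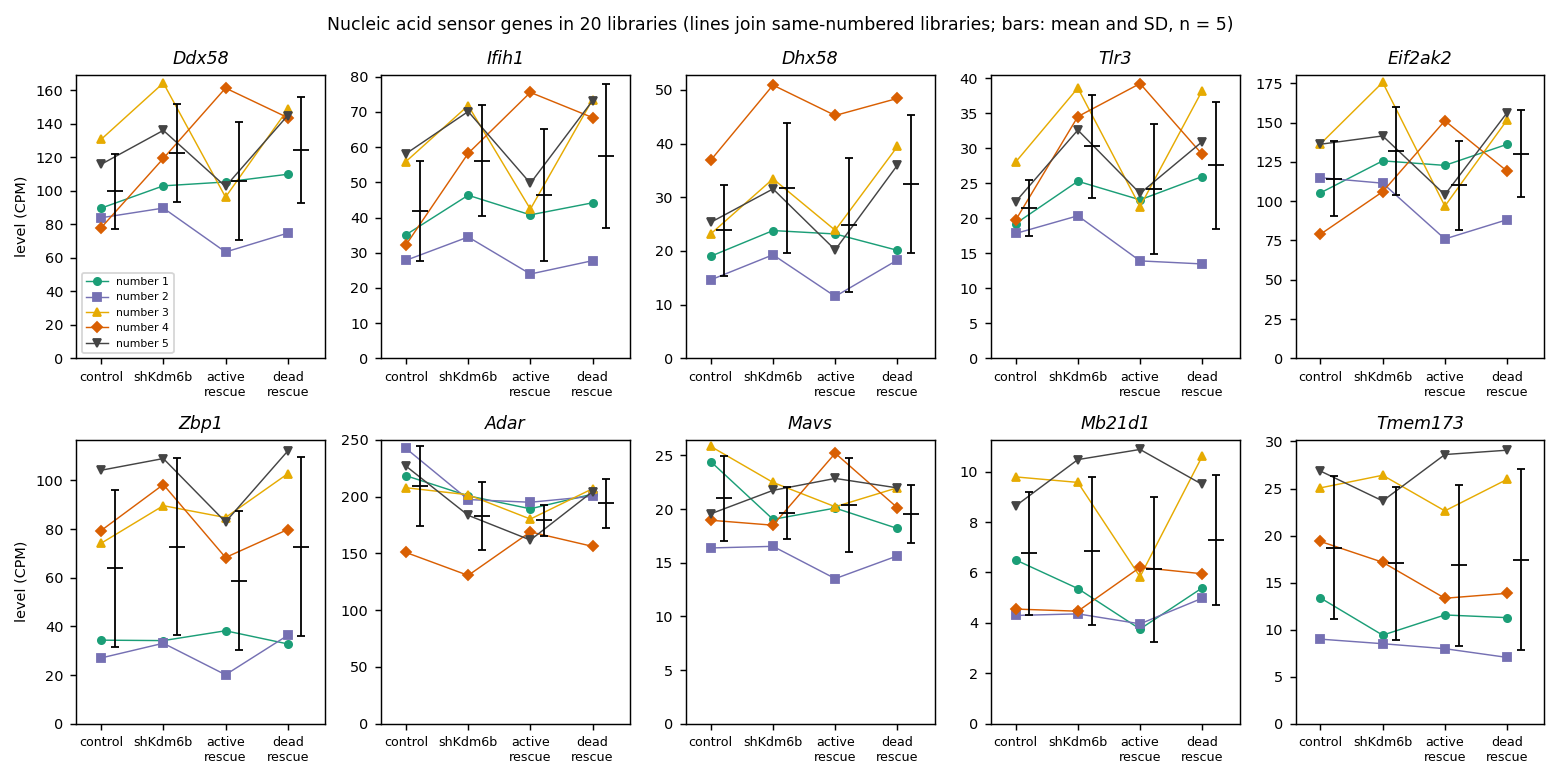
Level of each sensor gene in CPM (vertical axes, from 0) in the 4 groups, with a coloured line joining the libraries of each number and bars for the mean and SD of 5 libraries. The lines of a number keep much the same height across groups in *Tmem173* and *Zbp1*, and library 4 of the active rescue, at 161 CPM for *Ddx58* and 39.2 CPM for *Tlr3*, stands above the other active rescue libraries.

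*Eif2ak2* encodes PKR, a kinase that double-stranded RNA activates and that shuts down translation through eIF2 alpha. Controls held 105, 115, 136, 79.0 and 136 CPM and shKdm6b libraries 126, 111, 176, 106 and 141 CPM, in number order. The active rescue libraries held 123, 76.0, 96.9, 151 and 104 CPM, and the dead rescue libraries 136, 88.2, 152, 119 and 156 CPM. The shKdm6b library was above its control in 4 of 5 pairs, and the groups overlapped. The paired log2 fold change was 0.20 ± 0.17 (edgeR adjusted p = 0.690).

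*Zbp1* and *Adar* both handle Z-form nucleic acid: ZBP1 senses it and can start necroptosis through RIPK3, while ADAR edits adenosine to inosine in double-stranded RNA and keeps the cell's own RNA from being sensed. *Zbp1* was 34.3, 27.0, 74.1, 79.4 and 104 CPM in controls 1 to 5 and 34.1, 33.1, 89.6, 98.3 and 109 CPM in shKdm6b 1 to 5. The active rescue libraries held 38.2, 20.1, 84.7, 68.3 and 82.9 CPM, and the dead rescue libraries 32.8, 36.3, 103, 79.8 and 112 CPM. In every group libraries 1 and 2 were below libraries 3, 4 and 5. The paired log2 fold change of *Zbp1* against control was 0.19 ± 0.12 in shKdm6b (edgeR adjusted p = 0.520) and -0.11 ± 0.12 in the active rescue.

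*Adar* was 219, 243, 208, 151 and 227 CPM in controls 1 to 5 and 201, 198, 202, 131 and 184 CPM in shKdm6b 1 to 5. The active rescue libraries held 189, 195, 180, 169 and 162 CPM, and the dead rescue libraries 202, 200, 207, 156 and 205 CPM. Library 4 was the lowest in control, shKdm6b and the dead rescue. Each shKdm6b library was below its control, by 0.04 to 0.31 in log2 CPM. The paired log2 fold change against control was -0.20 ± 0.08 in shKdm6b (edgeR unadjusted p = 0.0339, adjusted p = 0.275), -0.21 ± 0.08 in the active rescue (adjusted p = 0.284) and -0.10 ± 0.08 in the dead rescue. Without pairing it was -0.20 ± 0.15 in shKdm6b (unadjusted p = 0.198). None passed the test.

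In the DNA route the group differences were small beside the spread between numbers. *Mb21d1* (cGAS) had the lowest level of the 10, with group means of 6.75 CPM ± 2.44 (SD, n = 5) in control, 6.85 ± 2.95 in shKdm6b, 6.13 ± 2.87 in the active rescue and 7.28 ± 2.58 in the dead rescue. *Tmem173* (STING) held 13.4, 8.99, 25.1, 19.4 and 26.9 CPM in controls 1 to 5 and 9.41, 8.50, 26.4, 17.2 and 23.7 CPM in shKdm6b 1 to 5. The order of the numbers was nearly the same in both groups. In shKdm6b against control the paired log2 fold change was -0.01 ± 0.17 for *Mb21d1*, with a 95% interval from -0.38 to 0.35. It was -0.17 ± 0.11 for *Tmem173*, with an interval from -0.41 to 0.07.

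Between the rescues and the hairpin alone, most sensor genes stood lower with the active domain, and with the dead domain they stood near shKdm6b, and no sensor gene passed the test in either comparison. Active rescue against shKdm6b gave negative log2 fold changes for 9 of the 10, with a median of -0.23 against 0.01 over all genes. The median was -0.11 without active rescue 3, with 7 of 10 negative, and -0.34 without active rescue 4. With numbers 4 and 5 alone it was -0.003, with 5 of 10 negative, and with numbers 1 to 3 alone -0.41, with 10 of 10 negative. Of the 10, 0 were called in the paired fit (0.00654% of all genes), 0 without pairing (0% of all genes) and 0 by paired DESeq2 (0.15% of all genes). The paired fit gave 2 of 10 at an unadjusted p under 0.05, both lower, against 3.78% of all genes, and the fit without pairing 0, against 0.327%. *Dhx58* stood at -0.39 ± 0.13 (edgeR unadjusted p = 0.00606, adjusted p = 0.866) and was lower in 5 of 5 pairs, as were 1.64% of all genes. For higher in 5 of 5 pairs the count was 0 of the 10, against 2.66%, and for groups without overlap 0, against 0.0523%. *Zbp1* stood at -0.30 ± 0.12 (unadjusted p = 0.0225, adjusted p = 1.00) and was lower in 4 of 5 pairs. *Tlr3*, *Ifih1*, *Eif2ak2* and *Ddx58* stood between -0.33 and -0.22 with SEs of 0.16 to 0.17. This comparison shares the shKdm6b libraries with the previous one, so the opposite signs are not independent.

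Dead rescue against shKdm6b ranged over the 10 genes from -0.16 for *Tlr3* to 0.12 for *Mb21d1*, with a median of -0.00, the same to 2 decimals as over all genes. It gave 0 calls among the 10 by paired edgeR (0% of all genes), 0 without pairing (0% of all genes) and 0 by DESeq2. At an unadjusted p under 0.05 it gave 0 paired, against 1.4% of all genes, and 0 without pairing, against 0.164%. *Adar* was higher in 5 of 5 pairs, as were 1.75% of all genes, at 0.09 ± 0.08. None of the 10 was lower in 5 of 5 pairs, against 1.54% of all genes, and 0 had groups without overlap, against 0.0458%. For *Dhx58* the 95% interval ran from -0.24 to 0.28 and for *Ifih1* from -0.36 to 0.34, widths that do not show that the groups were alike.

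**Figure D2:**
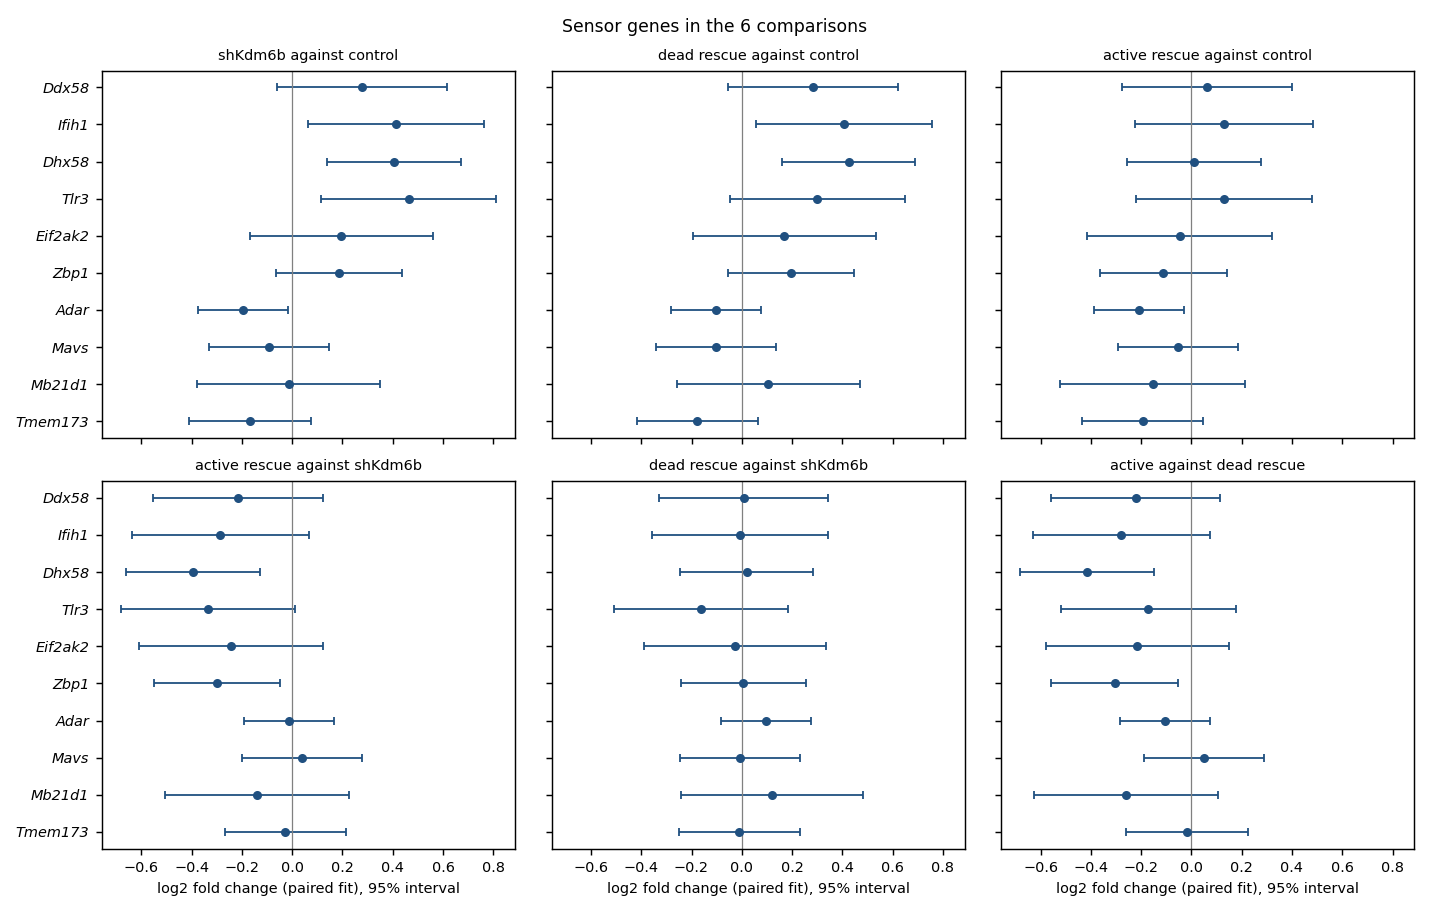
Log2 fold change of each sensor gene (horizontal axes) in the 6 comparisons from the fit paired by library number, with 95% intervals as bars. The RIG-I-like receptors and *Tlr3* lie between 0.28 and 0.46 in shKdm6b against control, and *Dhx58* lies at -0.39 in the active rescue against shKdm6b and at 0.02 in the dead rescue.

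The active and dead rescues differ by label in the enzymatic activity of the domain, and the amount of each domain is not known. *Kdm6b* stood 0.29 ± 0.21 higher on the log2 scale in the active than in the dead rescue. The active rescue was lower for 9 of the 10 sensor genes, with a median log2 difference of -0.22 against 0.01 over all genes. The median was -0.11 without active rescue 3 and -0.38 without active rescue 4. It was -0.099 with numbers 4 and 5 alone and -0.32 with numbers 1 to 3 alone. Of the 10, 0 were called by paired edgeR (0.00654% of all genes), 0 without pairing (0%) and 0 by paired DESeq2 (0.0196%). None of the 10 was higher in 5 of 5 pairs, against 3.49% of all genes, none was lower, against 2%, and 0 had groups without overlap, against 0.0523%. At an unadjusted p under 0.05 the paired fit gave 2, both lower, against 2.72% of all genes, and the fit without pairing 0, against 0.242%. *Dhx58* stood at -0.41 ± 0.13 (edgeR unadjusted p = 0.00441, adjusted p = 1.00), lower in 4 of 5 pairs. *Zbp1* stood at -0.31 ± 0.12 (unadjusted p = 0.0202), also lower in 4 of 5. *Mavs* at 0.05 ± 0.11 and *Tmem173* at -0.02 ± 0.11 were the nearest to 0.

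Against control, the active rescue gave log2 fold changes from -0.21 to 0.13 with a median of -0.05, and the dead rescue from -0.18 to 0.42 with a median of 0.18; over all genes the medians were 0.02 and 0.00. In the active rescue 0 of the 10 were called by paired edgeR (1.96% of all genes), 0 without pairing (0%) and 0 by paired DESeq2 (4.08%). At an unadjusted p under 0.05 the paired fit gave 1, *Adar*, against 13% of all genes, and the fit without pairing 0, against 2.53%. None of the 10 was higher in 5 of 5 pairs, against 6.83% of all genes, none was lower, against 4.51%, and 0 had groups without overlap, against 0.667%. In the dead rescue 0 were called by paired edgeR (1.18% of all genes), 0 without pairing (0%) and 0 by paired DESeq2 (2.98%). None of the 10 was lower in 5 of 5 pairs, against 5.65% of all genes, and 0 had groups without overlap, against 0.51%. There 2 of the 10, *Dhx58* and *Ifih1*, had an unadjusted p under 0.05 in the paired fit, both higher, against 10.7% of all genes, and 0 without pairing, against 1.81%. Both comparisons use the same controls as shKdm6b against control. Without control 4 the median of the dead rescue was 0.075. The median of the active rescue changed sign with single libraries, from -0.13 without control 4 to 0.022 without active rescue 3.

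Library 4 of the active rescue moved several of these values. It was the highest of its group for *Ddx58*, *Ifih1*, *Dhx58*, *Tlr3*, *Eif2ak2* and *Mavs*. In the comparison with shKdm6b its pair stood higher by 0.44 for *Ddx58*, 0.38 for *Ifih1* and 0.51 for *Eif2ak2* in log2 CPM. Pair 1 of these 3 genes differed by 0.03, -0.18 and -0.03, in that order. Pairs 2, 3 and 5 differed by -0.86 to -0.41. Without that library the paired fit of shKdm6b against control called 3 of the 10, where 5.93% of all genes were called, and the fit without pairing called 0. These were *Tlr3* (log2 fold change 0.48 ± 0.13, edgeR adjusted p = 0.0312), *Ifih1* (0.43 ± 0.12, adjusted p = 0.0423) and *Dhx58* (0.41 ± 0.12, adjusted p = 0.0498). The fold changes themselves barely moved, and the SEs were smaller. The active rescue against shKdm6b then stood at -0.53 ± 0.14 for *Tlr3*, -0.49 ± 0.13 for *Ifih1*, -0.47 ± 0.13 for *Dhx58*, -0.47 ± 0.13 for *Eif2ak2* and -0.41 ± 0.13 for *Ddx58*, with the smallest adjusted p at 0.403 and 0 called. The active rescue against control then called *Adar* (-0.29, adjusted p = 0.0395), where 2.5% of all genes were called, and without pairing 0 of the 10 were.

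With all 4 libraries numbered 4 left out, 0 of the 10 were called by the paired fit in shKdm6b against control, where 6.5% of all genes were. The smallest edgeR adjusted p there was 0.0625, for *Adar*, and *Ifih1* had 0.0816. *Adar* was called in the active rescue against control, at -0.32 ± 0.07 (adjusted p = 0.0100), where 4.6% of all genes were called. The active rescue against shKdm6b stood at -0.48 ± 0.10 for *Ifih1* (adjusted p = 0.133) and -0.40 ± 0.11 for *Ddx58* (adjusted p = 0.296), and 0 were called.

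**Figure D3:**
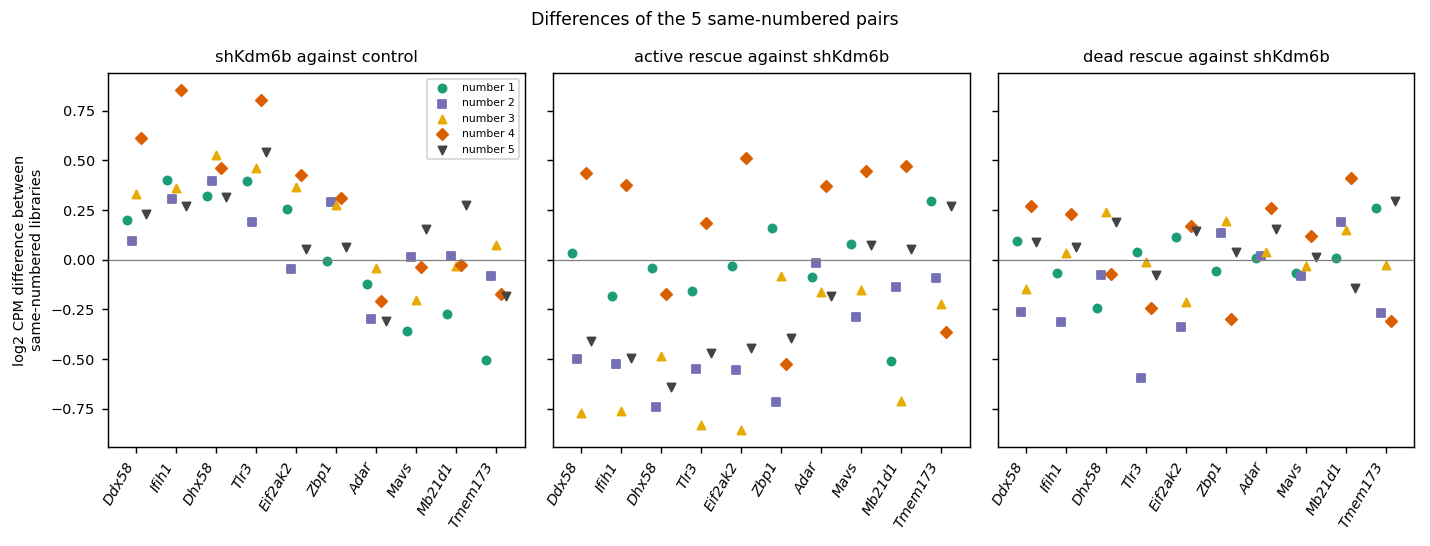
Difference in log2 CPM between same-numbered libraries for each sensor gene (vertical axes), 1 point per pair, in shKdm6b against control, the active rescue against shKdm6b and the dead rescue against shKdm6b. The 5 points of *Dhx58* in shKdm6b against control lie between 0.32 and 0.53. In the active rescue against shKdm6b the number 4 point is the highest for *Eif2ak2*, at 0.51, and for *Ddx58*, at 0.44.

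The library number carried more of the spread of every sensor gene except *Eif2ak2* than group and remaining spread together. Of the sum of squares in log2 CPM over 20 libraries, the number held 94.8% for *Tmem173*, 93.2% for *Zbp1*, 79.4% for *Mb21d1* and 78.9% for *Dhx58*, against 71.7% as the median of all genes. It held less than that median for *Ifih1* (67.5%), *Mavs* (65.7%), *Adar* (63.7%), *Tlr3* (58.5%) and *Ddx58* (54.3%). For *Eif2ak2* it held 33.7%, and 52.7% went with neither number nor group. The group held 17.1% for *Tlr3*, 16.2% for *Adar*, 13.6% for *Ifih1* and *Eif2ak2*, 13.3% for *Dhx58* and 13.2% for *Ddx58*, against a median of 4.26% over all genes. For *Tmem173*, *Mavs* and *Zbp1* it held 1.38%, 2.48% and 2.90%. These shares are a description, with no test.

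**Figure D4:**
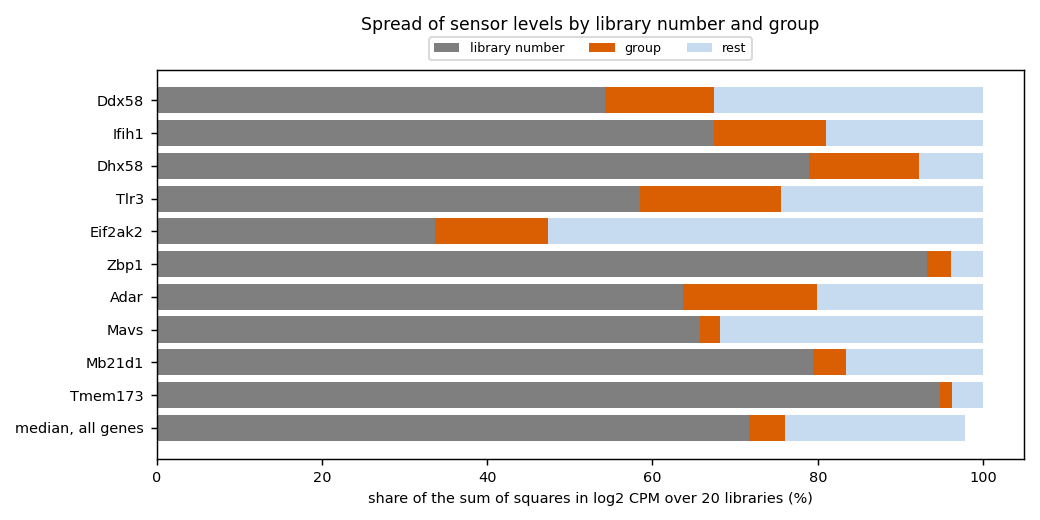
Share of the sum of squares in log2 CPM over 20 libraries (horizontal axis, %) that goes with the library number, the group and the rest, for each sensor gene and as the median of all genes, whose 3 parts are separate medians and need not fill the bar. The number holds 94.8% for *Tmem173* and 33.7% for *Eif2ak2*.

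The numbers also differed in markers of cell types. The summed level of 10 granule neuron markers was 1701 to 2739 CPM in the libraries numbered 4 and 3692 to 6165 CPM in the others, so the labelled cell type was detected throughout, lowest in number 4. The sum of 9 astrocyte markers was 11836 to 15330 CPM in number 4 and 2307 to 7178 CPM elsewhere. *Dhx58* was highest in number 4 of every group, and *Adar* was lowest in number 4 of all groups but the active rescue. In numbers 1, 2, 3 and 5 *Dhx58* averaged 21.5, 15.9, 30.0 and 28.3 CPM. The astrocyte sums there had medians of 6862, 5089, 4444 and 2622 CPM, in the same order. The sum of 8 meningeal fibroblast markers was 19661 to 25489 CPM in number 5, 11409 to 13494 CPM in number 3 and 3575 to 7883 CPM in the others. *Tmem173* was highest in numbers 3 and 5 in all 4 groups, with 22.6 to 29.1 CPM against 7.04 to 19.4 CPM in the rest. The sum of 11 microglia markers ranged from 235 to 1502 CPM and of 9 oligodendrocyte lineage markers from 64.6 to 957 CPM. For 6 endothelial markers the sum ranged from 56.5 to 180 CPM. Of these, *Cdh5* held 40.1 to 143 CPM, and *Pecam1*, *Flt1*, *Tek* and *Kdr* were above 0 in every library. *Cldn5* was at 0 in at least 1 library. The part of these cells in the sensor levels was not tested. In bulk RNA, fewer cells of a type and less RNA per cell cannot be told apart.

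Between groups the marker sums overlapped for each of the 6 lists. In shKdm6b against control the paired fit called 4.14% of all genes. Of the 10 granule neuron markers that fit called 1 higher (*Pax6*) and 3 lower (*Cbln3*, *Etv1* and *Slc17a7*). It called 1 lower of the 11 microglia markers (*Tmem119*) and 1 lower of the 9 oligodendrocyte lineage markers (*Cspg4*). It called 0 of the astrocyte, fibroblast and endothelial markers. Microglia sums ran from 270 to 1502 CPM in control and from 279 to 694 CPM in shKdm6b, and astrocyte sums from 2487 to 15330 CPM and from 2307 to 14037 CPM. Their part in the sensor differences was not tested.

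Per length of merged exons (GENCODE M21, build GRCm38), the mean levels in CPM per kilobase are given for control. *Adar* averaged 34.9, *Zbp1* 29.5, *Eif2ak2* 26.5 and *Ddx58* 25.7. *Dhx58* averaged 9.87, *Tmem173* 8.14, *Ifih1* 7.65, *Mavs* 6.79 and *Tlr3* 4.78. *Mb21d1* averaged 1.65. In shKdm6b *Zbp1* came first, at 33.6, with *Ddx58* at 31.6, *Eif2ak2* at 30.6 and *Adar* at 30.5. Neighbours in the control order overlapped in their 5 control libraries, except *Ddx58* and *Dhx58*, and *Tlr3* and *Mb21d1*. The gene spans of *Dhx58*, *Mb21d1*, *Eif2ak2*, *Tlr3* and *Adar* overlap genes on the opposite strand, among them *Dhx58os* and, for *Adar*, *Chrnb2*, and whether the counting used strand is not given in the sources used here. Without it, whether reads of such partners entered these counts cannot be told. The overlaps are of whole gene spans, and overlap of exons was not looked at.

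*Ddx58* lies on chromosome 4 at 40203773 to 40239828 (minus strand), *Ifih1* on chromosome 2 at 62595798 to 62646255 (minus), *Dhx58* on chromosome 11 at 100694884 to 100704271 (minus) and *Mavs* on chromosome 2 at 131234063 to 131248025 (plus). *Tlr3* lies on chromosome 8 at 45395665 to 45411080 (minus), *Adar* on chromosome 3 at 89715022 to 89753446 (plus), *Mb21d1* on chromosome 9 at 78430526 to 78443237 (minus), *Zbp1* on chromosome 2 at 173206612 to 173218923 (minus) and *Eif2ak2* on chromosome 17 at 78852564 to 78882573 (minus). *Tmem173* lies on chromosome 18. These are whole gene spans in GRCm38, and the counts are over each gene's transcripts.

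Lists of genes around the sensors were read beside them. With lists this short, a few calls cannot be told apart from the share over all genes. In shKdm6b against control the paired fit called 1 of 20 genes of the RIG-I-like receptor and TLR3 signalling relay, *Usp18*, a protease that removes ISG15 and restrains interferon receptor signalling, where 4.14% of all genes were called. It rose from 84.9 CPM ± 23.1 (SD, n = 5) to 133 ± 57.8 (log2 fold change 0.59 ± 0.14, edgeR adjusted p = 0.0257). Of 21 other sensors, 2 rose: *Oas1b*, of the 2′-5′ oligoadenylate synthetase family, from 14.1 CPM ± 5.96 to 21.6 ± 11.04 (0.58 ± 0.14, adjusted p = 0.0288), and *Ifit1*, which binds RNA lacking a methylated cap, from 161 CPM ± 43.8 to 220 ± 93.5 (0.38 ± 0.10, adjusted p = 0.0416). All 3 were higher in 5 of 5 pairs, and without pairing none of them passed. Calls were 0 of 13 nucleic acid clearing and editing enzymes, 0 of 15 eIF2 alpha kinases, PKR partners and stress response genes and 0 of 5 necroptosis partners of ZBP1. The list medians were 0.04 for the relay, 0.05 for other sensors, 0.05 for the clearing enzymes, -0.07 for the eIF2 alpha list and 0.01 for the ZBP1 partners, against 0.01 over all genes.

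Of 14 genes of type I interferon and its receptor and STAT signalling, 12 were tested, with 0 called and a median of 0.10. *Ifnb1* and *Ifna4*, which encode type I interferons, were too low to test. *Ifnb1* had reads in 7 of 20 libraries with at most 0.276 CPM, and *Ifna4* in 3 with at most 0.148 CPM.

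A list of 25 interferon-stimulated genes, none of them among the 10 sensor genes, was read beside them, and earlier results of these data had already shown its direction. In shKdm6b against control 5 of the 25 rose in the paired fit and 0 fell, where 4.14% of all genes were called in either direction, with 25 of 25 log2 fold changes above 0 and a median of 0.38. The 5 were *Usp18*, *Ifit1*, *Ifit3*, *Rsad2* and *Rtp4*. *Ifit3* rose by 0.63 ± 0.12 on the log2 scale (edgeR adjusted p = 0.00731), from 103 CPM to 168 CPM. *Rsad2*, which encodes the antiviral enzyme viperin, rose by 1.07 ± 0.27 (adjusted p = 0.0330), from 33.5 CPM to 74.7 CPM. *Rtp4* rose by 0.37 ± 0.09 (adjusted p = 0.0197), from 56.0 CPM to 75.1 CPM. In the active rescue against shKdm6b 0 of 25 were called and 0 of 25 were above 0, with a median of -0.31. In the dead rescue against shKdm6b 0 were called, with a median of 0.00. In the dead rescue against control *Ifit3* alone was called (0.59 ± 0.12, edgeR adjusted p = 0.0274), with a list median of 0.39. In the active rescue against control 0 were called, with 15 of 25 above 0 and a median of 0.06. *Rsad2* averaged 65.0 CPM ± 41.2 (SD, n = 5) in the active rescue and 62.6 ± 22.8 in the dead rescue. None of the 25 was called without pairing in any of the 6 comparisons.

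Once the mean of each library number was removed, some sensor genes kept a common pattern over the 20 libraries and others did not. Against the mean of the other 9, Pearson's r was 0.88 for *Eif2ak2*, 0.87 for *Ddx58*, 0.81 for *Ifih1*, 0.77 for *Tlr3* and 0.68 for *Dhx58*. It was 0.48 for *Mb21d1*, 0.38 for *Mavs*, 0.35 for *Adar*, 0.28 for *Zbp1* and -0.20 for *Tmem173*. The genes with the printed GAAANNGAAA matches are the first 3 of this order. *Tlr3*, whose window held no match, came next, and *Dhx58*, *Zbp1* and *Tmem173* had no window. Any part of the motif in this order was not tested. Of all other genes tested, the 5 most like the mean of the 10 were *Gm12250*, *Sp100*, *Parp12* and *Samd9l*, each with r of 0.92, and *Trim30a* with 0.90. Their paired log2 fold changes in shKdm6b against control ran from 0.16 for *Samd9l* to 0.44 for *Gm12250*, and in the active rescue against shKdm6b from -0.39 for *Parp12* to -0.15 for *Samd9l*, none of them called. These values share libraries, depth scaling and groups and are given as a description.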

How the data were processed

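The labels' protocols give total RNA taken with the RNAqueous Micro Kit and library construction at Novogene. The authors deposited estimated counts per gene from salmon, neither depth- nor length-scaled, in 1 table. Per the submitters' processing notes, mm10 was the build. The sources used here do not give the salmon version, annotation or strand setting. Counts were rounded. edgeR 4.0.16 (R 4.3.3) with filterByExpr, TMM and a robust quasi-likelihood fit of all 20 libraries was the planned test, two-sided, and DESeq2 1.42.0 an alternative. The code was tested on simulated data. A chi-square per degree of freedom between libraries of the same group was 24.9 to 346, above sampling noise, and no library was merged.

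The numbers 1 to 5 were checked as a pairing before calls were compared: deviations from group means of all 30 same-numbered pairs correlated across genes, with r from 0.361 to 0.881. For the 120 other pairs between groups the median r was -0.205, and the highest, 0.572, lay inside that range. The number was therefore also fitted as an additive block, giving a biological coefficient of variation of 0.179 instead of 0.392 and 12 instead of 16 residual degrees of freedom. In shKdm6b against control, called genes went from 1 to 632.

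All 10 sensor genes are named. Genes of the other lists are named where called, and the 5 genes of most similar pattern by Pearson's r in log2 CPM (prior count 1). Members and lists were chosen with earlier results of these data known.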

Additional observations from a re-analysis of the deposited data

Results flagged for a closer look

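In 2 groups of 5 libraries 1 library stood far from the others for *Adar*. In shKdm6b, library 4 held 131 CPM, against a median of 198 CPM and a highest value of 202 CPM, and its gap to the nearest library took 0.745 of the range. In the dead rescue, library 4 held 156 CPM, against a median of 202 CPM and a highest value of 207 CPM, and the gap took 0.869 of the range. Both lie above Dixon's limit for 5 samples, which chance passes in about 1 of 20 groups, and 40 gene and group combinations were looked at. In control, library 4 was also the lowest, at 151 CPM. Libraries numbered 4 also had the lowest granule neuron and the highest astrocyte marker sums, whose part in these values was not tested.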

How the results depend on the processing

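Genes called over the whole table depended on the pairing and the tool. Without pairing, DESeq2 in place of edgeR called 64 genes in shKdm6b against control, 29 in the active rescue against control and 17 in the dead rescue against control. With the replicate block, edgeR called 632, 299 and 181 there, 1 in the active rescue against shKdm6b and 1 in active against dead. DESeq2 with the block called 623 in the active rescue against control, 455 in the dead rescue against control, 23 in the active rescue against shKdm6b and 3 in active against dead. Upper-quartile scaling with the block called 0 in active against dead. Without the libraries numbered 4 the block fit called 990, 700 and 378 against control for shKdm6b, active and dead rescue, and 0 in active against dead. Numbers 1 to 3 alone called 454 in the active rescue against control, 17 in the active rescue against shKdm6b, 1 in the dead rescue against shKdm6b and 9 in active against dead. Numbers 4 and 5 alone called 0 in each of these 6 comparisons.

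Sensor genes called stayed at 0 of 10 in every comparison under these settings, except *Adar*, 1 of 10, in the active rescue against control without number 4. With all 20 libraries the block changed no call of a sensor gene. Without active rescue library 4 it did, from 0 to 3 in shKdm6b against control and from 0 to 1 in the active rescue against control. Of the differences that reached their SE in the paired fit, 4 reversed with numbers 4 and 5 alone, paired. These were *Ddx58* at 0.029 and *Eif2ak2* at 0.065 in the active rescue against shKdm6b, and *Mb21d1* at 0.11 and *Tlr3* at 0.030 in active against dead. Smaller differences also changed sign and are not counted here: in the active rescue against shKdm6b 5 of 10 were negative, against 9 with all libraries. The cause was not tested.

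Leaving out 1 library at a time, genes called ranged in shKdm6b against control from 0 to 11, or 352 to 912 with the block. The ranges were 0 to 1 or 128 to 410 in the active rescue against control, and 0 to 2 or 65 to 348 in the dead rescue against control. With the block they were 0 to 2 in both the active rescue against shKdm6b and active against dead. Sensor genes called ranged from 0 to 3 in shKdm6b against control and from 0 to 1 in the active rescue against control, both with the block, and only the fits without active rescue library 4 gave any. Without the block, log2 fold changes ranged across 0 for *Tmem173* against control (shKdm6b -0.35 to 0.030, active -0.43 to 0.024, dead -0.37 to 0.10), for *Zbp1* against control (shKdm6b -0.0030 to 0.44, dead -0.020 to 0.44) and for *Adar* in the dead rescue against shKdm6b (-0.0083 to 0.16). The fold changes compared cover 32 gene and comparison combinations whose paired difference reached its SE, chosen after seeing the data.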
